A study of Rattus norvegicus with 18 samples.

Results

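The SLC25 genes encode the mitochondrial carriers, which were followed here across retinas that had or had not been exposed to damaging light. The members were the genes whose symbol in the platform table starts with Slc25a and a digit, with the brightest probe set taken where a gene had more than 1. This gave 37 genes from 42 probe sets, of 29214 probe sets and 14506 singly named genes in all. The difference between light-exposed and unexposed retinas passed for 4 of the 37 (10.8%), beside 4.82% of all probe sets and 6.29% of singly named genes. Only that of Slc25a30 also exceeded 2-fold, as did 0.421% of all probe sets.

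The carriers sit mostly in the inner mitochondrial membrane. Each moves metabolites between cytosol and matrix, among them ADP and ATP, phosphate, carboxylic acids, amino acids, fatty acyl groups, cofactors and metals. They are encoded in the nucleus and imported from the cytosol. Photoreceptors pack their mitochondria into the inner segment and use much ATP to keep the dark current and the visual cycle running.

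All animals were Sprague Dawley rats of postnatal day 80 to 120 reared in dim cyclic light of 5 lux. According to the study, control animals were routinely fed a vegetable matrix, which also served as the vehicle for saffron. The control group had no pretreatment and stayed in normal light. The PBM (photobiomodulation) group received 670 nm light for 3 min a day on 5 days. The labels give its fluence as 10 J/cm^2, and the study's methods give a slightly lower one. The saffron group received 1 mg/kg/day of dietary saffron for 3 weeks. The LD (light damage) group was exposed to bright light for 24 h, and in PBMLD and SafLD the same exposure followed the pretreatment. The labels give 1000 lux for PBMLD and SafLD. For LD they conflict, with 1000 lux in the description and 100 lux in the source name. The study's methods give 1000 lux for the LD group. The strain is albino, and whole retina was taken, so each value averages over all retinal cells. Each group had 3 arrays, which the labels call biological replicates, and the sex of the animal behind an array is not given.

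Signals are deposited log2 intensities from Affymetrix rat Gene 1.0 ST arrays, and a step of 1 is a 2-fold change. Differences came from 1 limma fit of the 6 group means, are given as log2 values with their standard error, and passed when p adjusted over all 29214 probe sets was below 0.05. The 3 comparisons of a light-exposed group with its own unexposed group (LD with control, PBMLD with PBM, SafLD with saffron) share no array with each other, and their mean is called the pooled light response. It sets the 9 light-exposed arrays against the 9 unexposed ones. Array medians lay between 6.12 and 6.19. Of 10 rod markers 7 were measured, and their mean signal was between 12.04 and 12.78 on every array. Lens markers, some of which the retina also expresses, averaged 10.12 to 12.44 and were highest on saffron 1 (11.77), LD 1 (12.44), LD 3 (12.33) and PBMLD 1 (11.54), and their part in any result was not tested beyond refitting without these arrays. Pigment epithelium markers averaged 6.13 to 6.98 in LD, beside 5.09 to 6.24 in control, 5.02 to 5.68 in PBM and 4.76 to 6.68 in the other groups. Their median difference was 0.93 in LD against control and 0.56 in the pooled light response, and 0 of 5 passed in limma in either. In the pooled response 1 had an unadjusted p below 0.05, beside 16.1% of all probe sets. In LD against control 3 did, where no share over all probe sets was taken. The 13 lens markers measured had medians of 0.91 in LD against control and 0.15 in the pooled response. Of these 0 passed in limma in either, and 9 and 1 had an unadjusted p below 0.05. The part of the pigment epithelium markers was not tested. The refit without the 4 arrays of highest lens level left only LD 2 in the LD group. It therefore says little about comparisons with LD, and its counts of passing members are not given.

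Promoter windows were sought for the members that passed in the pooled light response. Full windows were found for Slc25a10 and Slc25a35, which fell with light. None was found for Slc25a30 or Slc25a32, which rose. Of the 37 members, 32 were matched by Entrez gene identifier in RefSeq's table for the GRCr8 assembly. Slc25a10, the dicarboxylate carrier, starts downstream of chr10:106264146-106264395 on the plus strand. Slc25a35, an orphan carrier without an established substrate, starts downstream of chr10:54172115-54172364 on the plus strand. Capitals mark the CCAAT box, searched as CCAAT on both strands and found here as its reverse complement ATTGG.
Slc25a10: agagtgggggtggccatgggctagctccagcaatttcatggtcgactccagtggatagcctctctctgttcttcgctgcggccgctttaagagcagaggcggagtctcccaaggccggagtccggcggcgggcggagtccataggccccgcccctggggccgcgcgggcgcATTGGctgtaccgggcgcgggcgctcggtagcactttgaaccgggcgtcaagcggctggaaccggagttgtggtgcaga
Slc25a35: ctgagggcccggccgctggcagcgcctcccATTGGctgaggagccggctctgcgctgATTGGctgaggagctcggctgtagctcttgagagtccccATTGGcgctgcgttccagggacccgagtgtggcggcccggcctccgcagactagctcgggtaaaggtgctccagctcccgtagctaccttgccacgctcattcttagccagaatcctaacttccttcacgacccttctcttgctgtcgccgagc
The Slc25a10 window held 1 CCAAT box, 79 bases before the start. The Slc25a35 window held 3, at 220, 193 and 154 bases before it. Of 33469 rat promoter windows of this length, 34% held the letters. The GC box GGGCGG, searched on both strands, occurred in the Slc25a10 window at 121 and 103 bases before the start, not in the Slc25a35 window, and in 30.5% of all windows. The photoreceptor CRX core GGATTA (6.34% of windows), the NRF1 motif (3.75%), the ERR half-site AAGGTCA (3.99%), the CRE motif TGACGTCA (1.59%), the AP-1 motif TGANTCA (6.34%), the STAT motif TTCNNNGAA (7.67%), the amino acid response motif TGATGNAA (3.4%) and the TATA letters TATAAA (12.9%) were in neither window, each searched on both strands. These matches describe letters only.

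Slc25a30, an uncoupling protein-like carrier, was the family's main difference. In control retinas its signal was 6.86, 6.84 and 6.56, in PBM 7.58, 7.36 and 7.45, and in saffron 6.83, 6.85 and 6.87. After light it was 8.87, 9.65 and 9.99 in LD, 8.88, 8.41 and 8.98 in PBMLD, and 9.15, 9.64 and 10.11 in SafLD. Every exposed array lay above every unexposed one: the lowest exposed value was 8.41, in PBMLD, and the highest unexposed value 7.58, in PBM. Slc25a30 was the 1 member of 37 (2.7%) with such a separation, which 1.03% of all probe sets had.

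**Figure D1:**
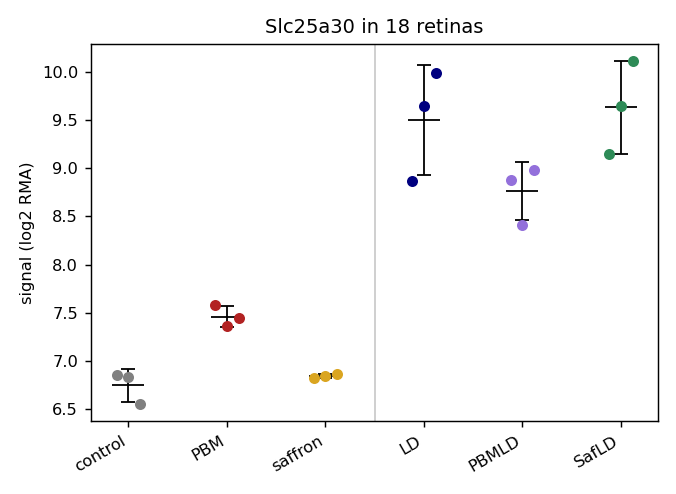
Signal of Slc25a30 (log2 RMA, y axis) on each of 18 arrays by group (x axis). Points are arrays, bars the group mean and SD (n = 3), and the vertical line parts unexposed from light-exposed groups. The exposed arrays lie between 8.41 and 10.11, all above the unexposed arrays at 6.56 to 7.58.

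The pooled light response of Slc25a30 was 2.28 ± 0.14, a 4.85-fold rise (limma, adjusted p = 3.5e-08). It rose in each of the 3 separate responses. The rise was 2.75 ± 0.25 in LD against control (limma, adjusted p = 1.4e-05), a 6.73-fold change. It was 2.78 ± 0.25 in SafLD against saffron (limma, adjusted p = 5.8e-06), a 6.88-fold change. In PBMLD against PBM it was 1.30 ± 0.25 (limma, adjusted p = 0.0302), a 2.46-fold change. This last call was lost when PBM 1, PBM 2, PBM 3, PBMLD 1, PBMLD 3 or SafLD 2 was left out, with adjusted p up to 0.156, and the difference then lay between 1.19 and 1.36. In a limma fit of PBMLD and PBM alone the adjusted p was 0.0686.

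No difference between Slc25a30 with and without PBM passed, before or after light. Before light, PBM retinas lay above control without overlap, by 0.71 ± 0.25 (1.63-fold, limma, unadjusted p = 0.0112, adjusted p = 0.358). Such a separation, with PBM higher, was seen in 11.8% of all probe sets. After light, PBMLD lay 0.75 below LD (difference -0.75 ± 0.25, limma, unadjusted p = 0.00802, adjusted p = 0.269), and the arrays overlapped, since LD 1 at 8.87 was below PBMLD 1 and PBMLD 3. The direct test, the light response with PBM minus that without, gave -1.45 ± 0.35 with a 95% interval from -2.19 to -0.71. Its unadjusted limma p was 6.9e-04 and its adjusted p 0.999, so it did not pass over all probe sets. PBMLD against LD rested on single arrays. Without LD 1, the lowest LD array, it was -1.06 and passed (limma, adjusted p = 0.0437), without LD 3, the highest, it was -0.50 (limma, adjusted p = 0.499), and with array weights it was -0.37 (limma, adjusted p = 0.511). The difference of the light responses ran from -1.77 without LD 1 to -1.01 with array weights over the alternatives run, and passed in none of them.

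No saffron difference of Slc25a30 passed. The saffron difference from control was 0.10 ± 0.25 (95% interval -0.43 to 0.62). SafLD differed from LD by 0.13 ± 0.25 (95% interval -0.39 to 0.65). The light response with saffron minus that without was 0.03 ± 0.35 (95% interval -0.71 to 0.77, limma, adjusted p = 0.994). The last interval reaches past 1.5-fold in either direction, so a changed response of that size was not excluded.

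In order of group means, Slc25a30 stood at 6.75 ± 0.17 in control (SD, n = 3), 6.85 ± 0.02 in saffron, 7.46 ± 0.11 in PBM, 8.76 ± 0.30 in PBMLD, 9.50 ± 0.57 in LD and 9.63 ± 0.48 in SafLD. Neighbours overlapped between control and saffron, between PBMLD and LD, and between LD and SafLD. Saffron and PBM did not overlap, and neither did PBM and PBMLD. Variation over the 6 groups passed for Slc25a30 (moderated F test in limma, adjusted p = 9.8e-07).

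Over the 18 arrays, the 5 named genes outside the family with the pattern most like that of Slc25a30 were Stat3, Ahr, Pros1, Slc11a2 and Mak. Stat3, a transcription factor activated by cytokine receptors, had Pearson r = 0.978. Ahr, the aryl hydrocarbon receptor, had r = 0.977, and Pros1, the anticoagulant protein S that also serves as a ligand of the receptor Mertk, had r = 0.976. Slc11a2, the divalent metal transporter, had r = 0.971 and Mak, a kinase of the photoreceptor cilium, r = 0.97. The arrays fall into an exposed and an unexposed cluster, which such an r reflects. Within the 9 exposed arrays r was 0.90 for Stat3, 0.93 for Ahr, 0.88 for Pros1, 0.73 for Slc11a2 and 0.90 for Mak. Within the 9 unexposed arrays the values were 0.56, 0.51, 0.81, 0.82 and 0.44 in the same order. Of 14469 genes compared, 81 had r above 0.9 over the 18 arrays. These are descriptions of genes on shared arrays.

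Of the Muller glia markers, 4 of 5 were measured, with a list median of 0.04. In the pooled response 1, Gfap, rose, beside 2.83% of all probe sets. Gfap, the intermediate filament of reactive glia, had a pooled light response of 2.69 ± 0.15 (limma, adjusted p = 1.1e-08). The other 3 (Rlbp1, Slc1a3 and Aqp4) lay between -0.04 and 0.10 and did not pass. The mean signal of the 4 was 9.12 to 9.63 on unexposed and 9.58 to 10.42 on exposed arrays. The part of glial reaction in the Slc25a30 signal was not tested. In whole retina, fewer cells of a type and less RNA per cell cannot be told apart.

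The other uncoupling protein-like members did not move in this way. Slc25a14 (Bmcp1) had a pooled light response of 0.05 ± 0.07 and Slc25a27 (Ucp4) one of 0.10 ± 0.11. Among the carriers outside the Slc25a symbols, Ucp2, a widely expressed uncoupling protein, fell by 0.43 (pooled light response -0.43 ± 0.11, limma, adjusted p = 0.0374), opposite in direction to Slc25a30. Ucp1 and Ucp3 had -0.07 ± 0.11 and -0.06 ± 0.08, and Mtch1 and Mtch2, carrier-like proteins of the outer membrane, -0.07 ± 0.07 and 0.00 ± 0.08. Of these 5 relatives 1 passed, lower, beside 2% of all probe sets that passed lower. Their median was -0.07, beside -0.01 over all probe sets.

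Across the family, 4 of 37 members (10.8%) passed in the pooled light response, beside 4.82% of all probe sets and 6.29% of singly named genes (the members are all singly named). Slc25a30 and Slc25a32 rose, beside 2.83% of all probe sets, and Slc25a10 and Slc25a35 fell, beside 2%. With the further limit of more than 2-fold, 1 member passed, beside 0.421% of all probe sets. At an unadjusted p below 0.05 there were 11 members (29.7%), beside 16.1%. The median difference of the members was -0.01, the same as that of all probe sets. The 33 members that did not pass lay between -0.26 and 0.35, and for 32 of them the 95% interval stayed within 1.5-fold in either direction.

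**Figure D2:**
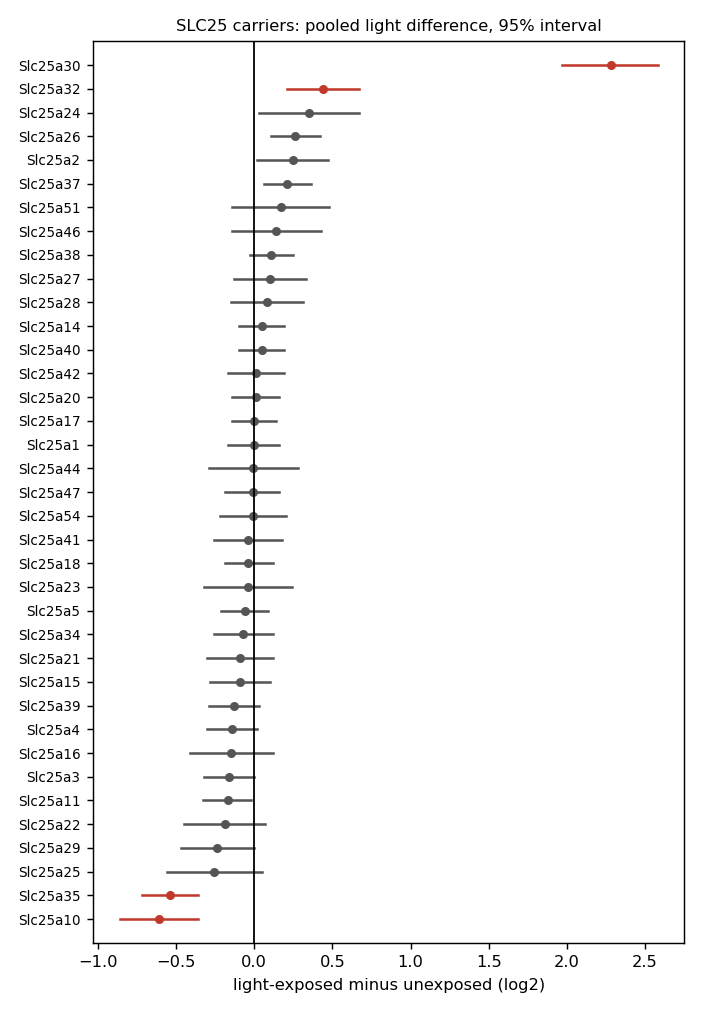
Pooled light response (light-exposed minus unexposed, log2, x axis) of the 37 SLC25 members (y axis), sorted by size, with points for the limma difference and bars for its 95% interval. Red marks the 4 that passed. Slc25a30 stands at 2.28, and the other 36 lie between -0.61 and 0.44.

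Slc25a10 exchanges malate and succinate for phosphate. Its signal was 8.46, 8.39 and 8.50 in control, 8.33, 8.47 and 8.27 in PBM, and 8.28, 8.00 and 8.40 in saffron. After light it was 7.84, 7.93 and 7.15 in LD, 8.10, 7.29 and 7.98 in PBMLD, and 7.87, 7.76 and 7.70 in SafLD. The exposed and unexposed arrays overlapped through 1 pair only, PBMLD 1 at 8.10 and saffron 2 at 8.00. It fell by 0.61 on the log2 scale in the pooled response (-0.61 ± 0.12, 1.53-fold, limma, adjusted p = 0.00432), and passed with any 1 array left out. In the separate responses it had -0.81 ± 0.20 in LD against control (limma, adjusted p = 0.0738), -0.57 ± 0.20 in PBMLD against PBM (limma, adjusted p = 0.413) and -0.45 ± 0.20 in SafLD against saffron (limma, adjusted p = 0.313), none of which passed.

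The other member that fell was Slc25a35. Its signal was 8.43, 8.55 and 8.57 in control, 8.58, 8.69 and 8.64 in PBM, and 8.87, 8.67 and 8.72 in saffron. After light it was 8.18, 8.09 and 7.57 in LD, 8.42, 8.10 and 8.50 in PBMLD, and 8.04, 8.12 and 7.86 in SafLD. The overlap lay between PBMLD 3 at 8.50 and control 1 at 8.43. It fell by 0.54 on the log2 scale in the pooled response (-0.54 ± 0.09, 1.45-fold, limma, adjusted p = 8.7e-04), with any 1 array left out too. Variation over the 6 groups also passed (moderated F test in limma, adjusted p = 0.0111).

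Among its separate responses, Slc25a35 fell in SafLD against saffron by 0.75 (-0.75 ± 0.15, limma, adjusted p = 0.0126). That call was lost without saffron 1 or without SafLD 3, with adjusted p up to 0.0898. In LD against control the difference was -0.57 ± 0.15 (limma, adjusted p = 0.0867), and in PBMLD against PBM -0.30 ± 0.15 (limma, adjusted p = 0.651). All 3 saffron arrays lay above all control arrays, by 0.24 ± 0.15 on average (limma, adjusted p = 0.989), as in 5.19% of all probe sets. The 3 PBM arrays also lay above all control arrays, by 0.12 ± 0.15 (limma, adjusted p = 0.835), as in 11.8% of all probe sets. The light response with saffron minus that without was -0.17 ± 0.21 and did not pass.

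Slc25a32 carries folate and FAD into the matrix. Its signal was 8.19, 8.28 and 8.46 in control, 8.19, 8.21 and 8.06 in PBM, and 8.47, 8.56 and 8.39 in saffron. After light it was 8.47, 8.69 and 8.96 in LD, 8.41, 9.37 and 8.63 in PBMLD, and 8.64, 8.84 and 8.71 in SafLD. The ranges overlapped between 8.41 and 8.56, where control 3 and the saffron arrays saffron 1 and saffron 2 met the lowest LD and PBMLD arrays. It rose by 0.44 ± 0.11 in the pooled response (1.35-fold, limma, adjusted p = 0.0262). The call was lost without control 1, PBM 3, saffron 1, LD 3, SafLD 2 or SafLD 3, with adjusted p up to 0.0616. Without PBMLD 2, its highest array, the difference was 0.34 and passed (limma, adjusted p = 0.0135).

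**Figure D3:**
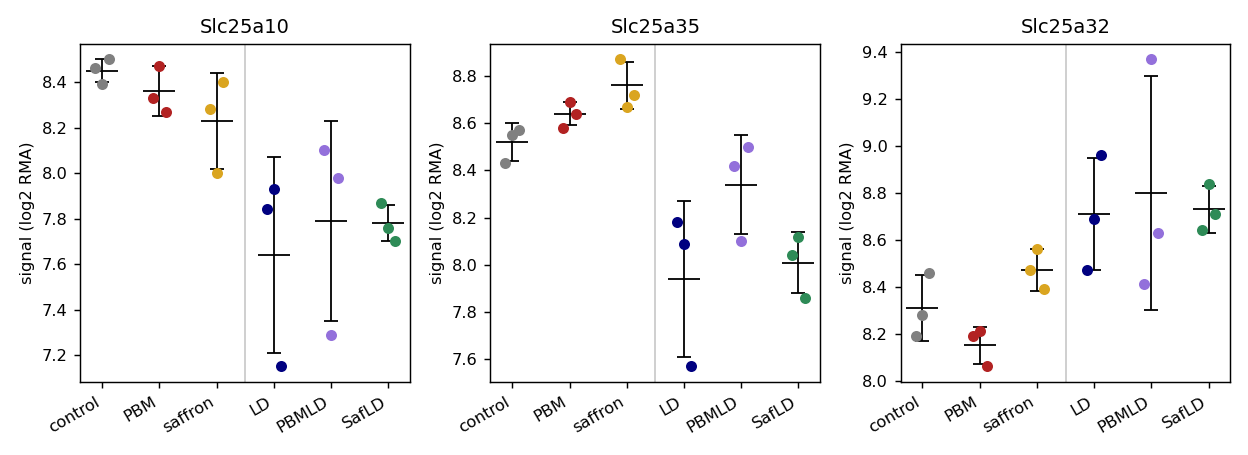
Signal (log2 RMA, y axis, a scale of its own for each panel) of Slc25a10, Slc25a35 and Slc25a32 on 18 arrays by group (x axis). Points are arrays and bars the group mean and SD (n = 3). Both falling genes have their lowest array in LD, at 7.15 and 7.57, and Slc25a32 has its highest in PBMLD, at 9.37.

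Some photoreceptor markers fell, as Slc25a10 and Slc25a35 did. Of 7 rod markers measured, 3 fell in the pooled response (beside 2% of all probe sets), namely Nrl, the rod transcription factor (-0.82 ± 0.15, limma, adjusted p = 0.0025), Rom1, a disc rim protein (-0.60 ± 0.10, limma, adjusted p = 0.00103), and Gnat1, rod transducin (-0.49 ± 0.08, limma, adjusted p = 7.7e-04). The other 4 (Pde6a, Pde6b, Cnga1 and Sag) lay between -0.06 and 0.09 and did not pass. The list's median was -0.06, and its mean signal was 12.58 to 12.78 on unexposed and 12.04 to 12.59 on exposed arrays. LD 3 had the lowest rod mean (12.04) and also the lowest Slc25a10 and Slc25a35. PBMLD 2 had the lowest rod mean of its group (12.33), the lowest Slc25a10 and Slc25a35 of its group, and the highest Slc25a32. This was not particular to these genes. Slc25a22, Slc25a25 and Slc25a15 were also lowest of their group on both arrays, while Slc25a14 was highest on both. The Muller marker mean was likewise lowest of its group on LD 3 (9.87) and PBMLD 2 (9.58). When array weights were estimated, LD 3 (0.362) and PBMLD 2 (0.267) had the lowest. Of 6 cone markers 3 fell (Pde6h at -0.67, Gnat2 at -0.55 and Opn1sw at -0.52), beside 2% of all probe sets. Another, Pde6c, rose by 0.44, beside 2.83% of all probe sets, while Opn1mw (-0.30) and Arr3 (0.03) did not pass. Their part in the carrier differences was not tested.

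The ADP/ATP carriers and the phosphate carrier, which supply ATP synthase with its substrates and export ATP, were close to their unexposed signals. Slc25a4 (Ant1) had a pooled light response of -0.14 ± 0.08, Slc25a5 (Ant2) one of -0.06 ± 0.07 and the phosphate carrier Slc25a3 one of -0.16 ± 0.08, and none passed. Slc25a4, Slc25a5 and Slc25a11 had the highest mean signals of the family (11.7, 11.3 and 10.5), and Slc25a21, Slc25a41 and Slc25a54 the lowest (5.11, 4.52 and 3.19). A signal depends on the probes as well as on the RNA, so these values do not rank the transcripts.

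Among 4 di- and tricarboxylate carriers Slc25a10 alone passed. The 2-oxoglutarate/malate carrier Slc25a11, part of the malate-aspartate shuttle, had -0.17 ± 0.07 (limma, unadjusted p = 0.0322, adjusted p = 0.247). The oxodicarboxylate carrier Slc25a21 had -0.09 ± 0.10 and the citrate carrier Slc25a1 0.00 ± 0.08. The single acylcarnitine carrier, Slc25a20, which brings fatty acyl groups in for oxidation, had 0.01 ± 0.07.

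None of the 5 ATP-Mg/phosphate carriers and their relatives passed. They ran from -0.26 ± 0.15 for Slc25a25 to 0.35 ± 0.15 for Slc25a24, both calcium-regulated carriers, with Slc25a23, Slc25a41 and Slc25a54 between -0.04 and -0.01. The 95% interval of Slc25a24 ran from 0.03 to 0.67 without passing, and its dimmer second probe set gave 0.08 ± 0.10.

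None of the 7 amino acid carriers passed. The range was from -0.24 ± 0.11 for Slc25a29, a carrier of basic amino acids, to 0.25 ± 0.10 for the ornithine carrier Slc25a2. Between them lay the glutamate carriers Slc25a22 (-0.19) and Slc25a18 (-0.04), the second ornithine carrier Slc25a15 (-0.09), the branched-chain amino acid carrier Slc25a44 (-0.01) and the glycine carrier Slc25a38 (0.11).

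Of 10 carriers for cofactors, nucleotides and metals, Slc25a32 alone passed. Slc25a26, the S-adenosylmethionine carrier, came nearest to the limit among the members that did not, at 0.26 ± 0.07 (limma, adjusted p = 0.051). It passed without PBMLD 2 and under 4 of the other alternatives. The mitoferrins Slc25a37 and Slc25a28, which import iron, had 0.21 ± 0.07 (limma, adjusted p = 0.128) and 0.08 ± 0.11. Slc25a51, the NAD carrier, had 0.17 ± 0.15, and its other probe sets 0.04 and 0.14. The glutathione carrier Slc25a39 had -0.13 ± 0.08 and its paralogue Slc25a40 0.05 ± 0.07. The remaining Slc25a16, Slc25a42 (coenzyme A) and Slc25a17 (peroxisomal) lay between -0.15 and 0.01.

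The last group, without an established substrate or with another role, held Slc25a35 and 3 members that did not pass. These were Slc25a34 at -0.07 ± 0.09, Slc25a47 at -0.01 ± 0.08, and Slc25a46, an outer membrane protein of mitochondrial dynamics, at 0.14 ± 0.14.

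Each separate light response called fewer members than the pooled one. In LD against control 1 member of 37 passed, Slc25a30, beside 1.11% of all probe sets. In PBMLD against PBM it was again Slc25a30 alone, beside 0.329%. In SafLD against saffron Slc25a30 and Slc25a35 passed, beside 2.09%. In each, the 95% interval stayed within 1.5-fold for 24 of the members that did not pass, and for the others a change of that size was not excluded. Variation over the 6 groups passed for 2 members, Slc25a30 and Slc25a35, beside 3.1%.

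The direction was the same in all 3 light responses for 14 members (37.8%), beside 33.2% of all probe sets. Higher in all 3 were Slc25a30, Slc25a32, Slc25a24, Slc25a26 and Slc25a28. Lower in all 3 were Slc25a10, Slc25a35, Slc25a3, Slc25a4, Slc25a11, Slc25a16, Slc25a22, Slc25a29 and Slc25a34. Only the sign was counted, whatever the size. Slc25a34 had 0.00 ± 0.15 in PBMLD against PBM, Slc25a4 -0.01 ± 0.13 in SafLD against saffron, and Slc25a28 0.02 ± 0.19 in LD against control. Slc25a26 had 0.08 ± 0.13 in LD against control, 0.20 ± 0.13 in PBMLD against PBM and 0.50 ± 0.13 in SafLD against saffron (limma, adjusted p = 0.0503). Slc25a37 had 0.46 ± 0.13 in PBMLD against PBM (limma, adjusted p = 0.194) and 0.00 ± 0.13 in SafLD against saffron. Slc25a2 had 0.67 ± 0.18 in SafLD against saffron (limma, adjusted p = 0.0654) and -0.15 ± 0.18 in PBMLD against PBM.

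Neither pretreatment alone changed a member past the threshold. In PBM against control 0 of 37 passed in limma, beside 0.154% of all probe sets, and 2 had an unadjusted p below 0.05, Slc25a30 and Slc25a37 (-0.27 ± 0.13), beside 9.96% of all probe sets. In saffron against control 0 passed, beside 0% of all probe sets, and 0 had an unadjusted p below 0.05, beside 4.6%. The members lay between -0.27 and 0.71 with PBM and between -0.26 and 0.29 with saffron. The methods' t-test with more than 2-fold change also gave 0 members in each of these comparisons. With PBM, 7 members (18.9%) lay above control without overlap, beside 11.8% of all probe sets, and 2 (5.41%) below, beside 11.4%. With saffron 1 member (2.7%) lay above without overlap, beside 5.19%, and 3 (8.11%) below, beside 4.85%.

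**Figure D4:**
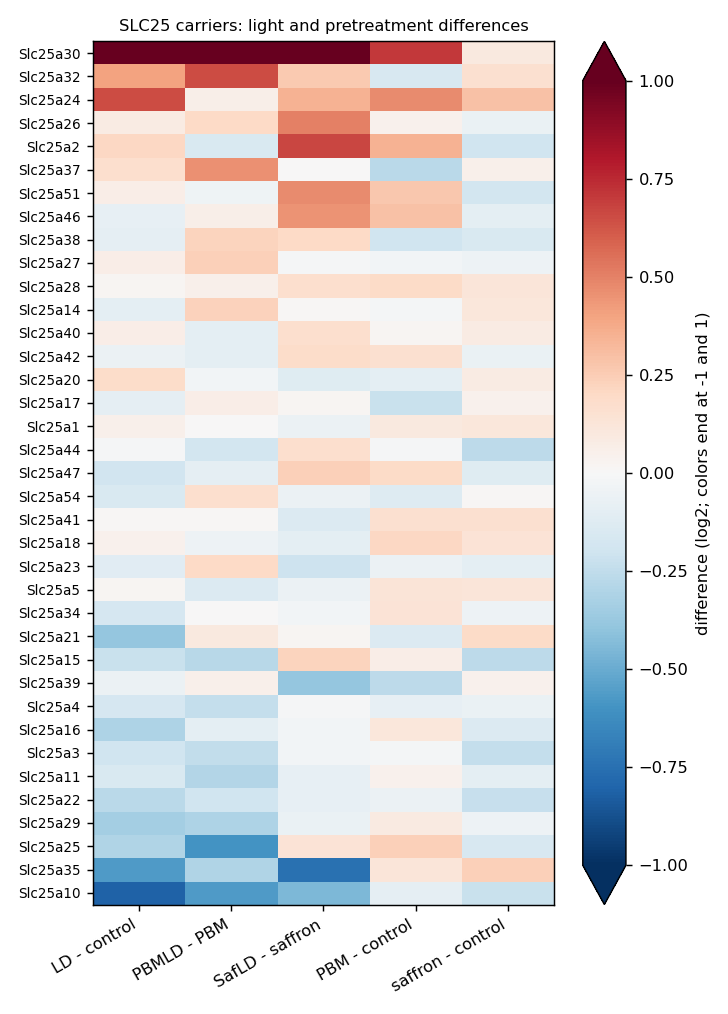
Differences (log2, color) of the 37 SLC25 members (rows, sorted by pooled light response) in the 3 light responses and for both pretreatments alone (columns). Colors end at -1 and 1. The Slc25a30 row is filled in all 3 light columns (2.75, 1.30 and 2.78) and reaches 0.71 with PBM alone.

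Under light, neither pretreatment moved a member past the threshold. In PBMLD against LD 0 of 37 passed in limma, beside 0.284%, and 4 had an unadjusted p below 0.05, beside 11.5%. Beside Slc25a30 these were Slc25a35 (0.39 ± 0.15), Slc25a14 (0.31 ± 0.12) and Slc25a20 (-0.32 ± 0.12). In SafLD against LD 0 passed, beside 0.308%, and 3 had an unadjusted p below 0.05 (beside 9.55%), namely Slc25a21 (0.60 ± 0.17, limma, adjusted p = 0.198), Slc25a26 (0.35 ± 0.13) and Slc25a39 (-0.28 ± 0.13). The methods' t-test with more than 2-fold change gave 0 members in both. LD is the reference in both comparisons, so they share its 3 arrays. PBMLD lay above LD without overlap for 2 members (5.41%), beside 8.7% of all probe sets, and below for 1 (2.7%), beside 4.41%. SafLD lay above LD for 5 members (13.5%), beside 10.1%, and below for 1 (2.7%), beside 6.5%.

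The tests of a changed light response called 0 members in limma, for PBM beside 0.00685% of all probe sets and for saffron beside 0.14%. At an unadjusted p below 0.05 each gave 1 member, Slc25a30 for PBM, beside 4.26% of all probe sets, and Slc25a26 for saffron (0.42 ± 0.18), beside 5.84%. The 95% interval stayed within 1.5-fold for 15 members with PBM and for 10 with saffron, so for most members a changed response of that size was not excluded.

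Carriers are brought into mitochondria by the Tom receptors and the small Tims that chaperone them to the Tim22 complex. Of 12 genes for such proteins 11 were measured. In limma 0 of these genes passed, beside 4.82% of all probe sets, while 2 had an unadjusted p below 0.05, beside 16.1%. Their median pooled light response was -0.09, from -0.37 ± 0.17 for Tomm20 to 0.18 ± 0.10 for Timm9. Of 14 other mitochondrial transporters measured of 16, 1 passed, a share near that of all probe sets: Vdac1, the outer membrane channel for metabolites, fell by 0.29 (-0.29 ± 0.08, limma, adjusted p = 0.0416). The pyruvate carrier subunits Mpc1 and Mpc2 each had -0.22 (SE 0.15 and 0.13). Among 9 regulators of mitochondrial biogenesis 2 rose (beside 2.83% of all probe sets), both coactivators: Ppargc1a by 0.40 ± 0.08 (limma, adjusted p = 0.00704) and Pprc1 by 0.37 ± 0.10 (limma, adjusted p = 0.0413). The transcription factors they work with, Nrf1 (-0.21 ± 0.07, limma, adjusted p = 0.0864), Gabpa (0.14 ± 0.08) and Esrra (-0.11 ± 0.07), did not pass, nor did Tfam (-0.02 ± 0.08), which packages mitochondrial DNA.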

How the data were processed

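Retinal RNA of 18 rats had been hybridized to Affymetrix rat Gene 1.0 ST arrays, 3 in each of 6 groups. The authors deposited log2 intensities summarized by RMA (background correction, quantile normalization, median polish), with Affymetrix Expression Console 1.1.2800.19935 according to the submitters' processing notes. These steps were not redone. A genome build was not given in the sources consulted. The number of arrays, and their unequal weights when estimated (0.267 to 2), limit the precision. Gene symbols came from the platform table (15310 probe sets with 1 symbol, 323 with several, 13581 with none). Probes of close relatives (Slc25a4 and Slc25a5, Slc25a2 and Slc25a15) were not checked for shared sequence.

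The 6 group means were estimated in limma 3.58.1 under R 4.3.3 (12 residual degrees of freedom, prior 5.05), two-sided, with Benjamini-Hochberg adjustment over 29214 probe sets and no filter. The fit was tested on data with planted changes. The members, lists and comparisons were chosen with earlier results of these data known. Array values were to be printed for Slc25a30 and for members that pass, the 5 non-members most correlated with Slc25a30 were named, and each further list contributed its largest differences. Promoters were the 250 bases before the start in RefSeq's GRCr8 table. Alternatives were the methods' t-test, separate fits of each compared pair of groups, robust fitting with a variance trend, weighting of arrays and 3 renormalizations. Further ones were leaving out dim probe sets, a replicate block as a fixed term, adjustment over singly named probe sets and the mean of a gene's probe sets. Each array was also left out in turn. The 4 arrays with the highest lens level were left out too, a choice made after seeing the data.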

Additional observations from a re-analysis of the deposited data

How the results depend on the processing

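The pooled light response of Slc25a30 passed in all 29 alternatives run, between 2.20 and 2.38. Slc25a10 (-0.66 to -0.52) and Slc25a35 (-0.58 to -0.46) passed in 28 of 29, the exception being the 2-fold limit, which left 1 member in the pooled response, 1 in SafLD against saffron and 1 in the F test. With each array left out in turn the counts of passing members ran from 3 to 5 in the pooled response, 1 to 2 in LD against control, 0 to 1 in PBMLD against PBM, 1 to 4 in SafLD against saffron, 0 to 1 in PBMLD against LD and 2 to 5 in the F test. The pooled count was 5, Slc25a26 joining, with array weights, dim probe sets left out, adjustment over singly named probe sets, the mean of a gene's probe sets or PBMLD 2 left out, and 5 with Slc25a24 without saffron 3 or Slc25a37 without LD 1. The count in LD against control was 2 with array weights, with dim probe sets left out (31 of 37 members kept) or with adjustment over singly named probe sets, Slc25a10 joining, and 3 with the mean of a gene's probe sets. In SafLD against saffron it was 6 with array weights, 4 with dim probe sets left out and 4 with the mean of probe sets. The F test gave 6 with array weights, where PBMLD 2 had the lowest weight (0.267). PBMLD against PBM gave 0 in the fit of those 2 groups alone. The methods' t-test with more than 2-fold change gave 1 member in SafLD against saffron unadjusted, and adjusted it gave 0 in LD against control, in PBMLD against PBM and in SafLD against saffron, where it called 0 of 29214 probe sets. The cause of these shifts was not tested.

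The saffron differences of Slc25a30, which never passed, changed sign in places. With 1 array left out SafLD against LD ran from -0.19 to 0.37, the light by saffron interaction from -0.28 to 0.28, and saffron against control from 0.00 to 0.15. Cyclic loess gave -0.02 for that interaction. Without the 4 arrays of highest lens level, SafLD against LD was -0.01 and the interaction -0.12, and LD then held 1 array, assumed to vary like the other groups. The replicate block changed no count (4 in the pooled response, 1, 1 and 2 in the separate ones, 2 in the F test). The labels link arrays of the same number by that number only. Their deviations correlated between -0.39 and 0.31 (median -0.05), beside -0.29 to 0.39 (median 0.02) for arrays of different number. Of 18 arrays 5 were nearest to their own number. Whether arrays of the same number were handled together was not tested.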
